A study of Mus musculus with 11 samples.

Results

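In the RNA-Seq libraries of *Oct4*-GFP+ spermatogonia, 43 of 37991 Ensembl identifiers had an RPKM of at least 0.5 in each of the 3 libraries from 8-month-old mice and under 0.1 in each of the 8 libraries from 6-day-old and 15-month-old mice. RPKM scales the reads of a gene to its exon length and to the size of the library. The genes were chosen by their RPKM values in all 11 libraries, so their difference between the ages is a description and was not tested. Another 10 oocyte genes were left out by the rule (*Gdf9*, *Bmp15*, *H1foo*, *Oosp1*, *Zp1*, *Zp2*, *Zp3*, *Nlrp5*, *Figla* and *Nobox*), of which 2, *Oosp1* and *Bmp15*, met both thresholds.

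All libraries came from male B6;CBA-Tg(Pou5f1-EGFP)2Mnn/J mice, which carry a green fluorescent protein gene under the control of *Oct4* (*Pou5f1*) regulatory sequence. Cells were sorted by GFP and by the surface receptor KIT, which marks the start of spermatogonial differentiation, with no other allele or agent. There were 2 libraries each of 6-day KIT-, 6-day KIT+, 8-month KIT-, 15-month KIT- and 15-month KIT+ cells, and 1 of 8-month KIT+ cells. The number of mice behind a library is not given in the sources used here. The ages are those of the labels. For the adult group the study's methods give 6 months and its results 6 to 8 months. For the aged group they give 15 months and a range that starts there.

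The 8-month libraries were the shallowest, with 12238327 to 16627834 reads on genes, against 25371501 to 37445554 at 6 days and 33593666 to 76756528 at 15 months. As a check of the sort at 8 months, *Kit* stood at 81.3 RPKM in the KIT+ library against 5.63 and 6.47 RPKM in the KIT- libraries, and the germ cell gene *Ddx4* was at 106 to 132 RPKM in the 3 libraries. In bulk samples, fewer cells of a type and less RNA per cell cannot be told apart.

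An oocyte stores RNA and protein for the egg and early embryo while it grows. Among its known products are the zona pellucida proteins, secreted growth factors and several clustered gene families that are silent in most other tissues. *Oct4* is active in growing oocytes as well as in undifferentiated spermatogonia, and spermatogonia also use part of the early germ cell programme, such as *Ddx4*, *Sohlh1* and *Sohlh2*.

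By a list of oocyte genes, the globin symbols and the annotated gene type, in that order, the 43 genes fell into 6 classes. The largest held 21 genes of a list of known oocyte genes that does not hold the 10 left-out genes (48.8%), 2 of them under an older symbol. The list has 79 identifiers, so 26.6% of it is in the set, against 0.113% of all identifiers. It was chosen with earlier results of these data known, so this share only describes the set. Of these 79, 13 had at least 0.5 RPKM in every library, spermatogonial ones included. Another 6 genes were protein-coding, 3 were globins, 5 were processed transcripts without a coding frame, 6 were short RNAs and 2 identifiers were not in the annotation (GENCODE M1 on NCBIM37, mm9). Protein-coding genes made up 73.2% of the 41 annotated genes and 60.0% of all annotated identifiers.

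**Figure D1:**
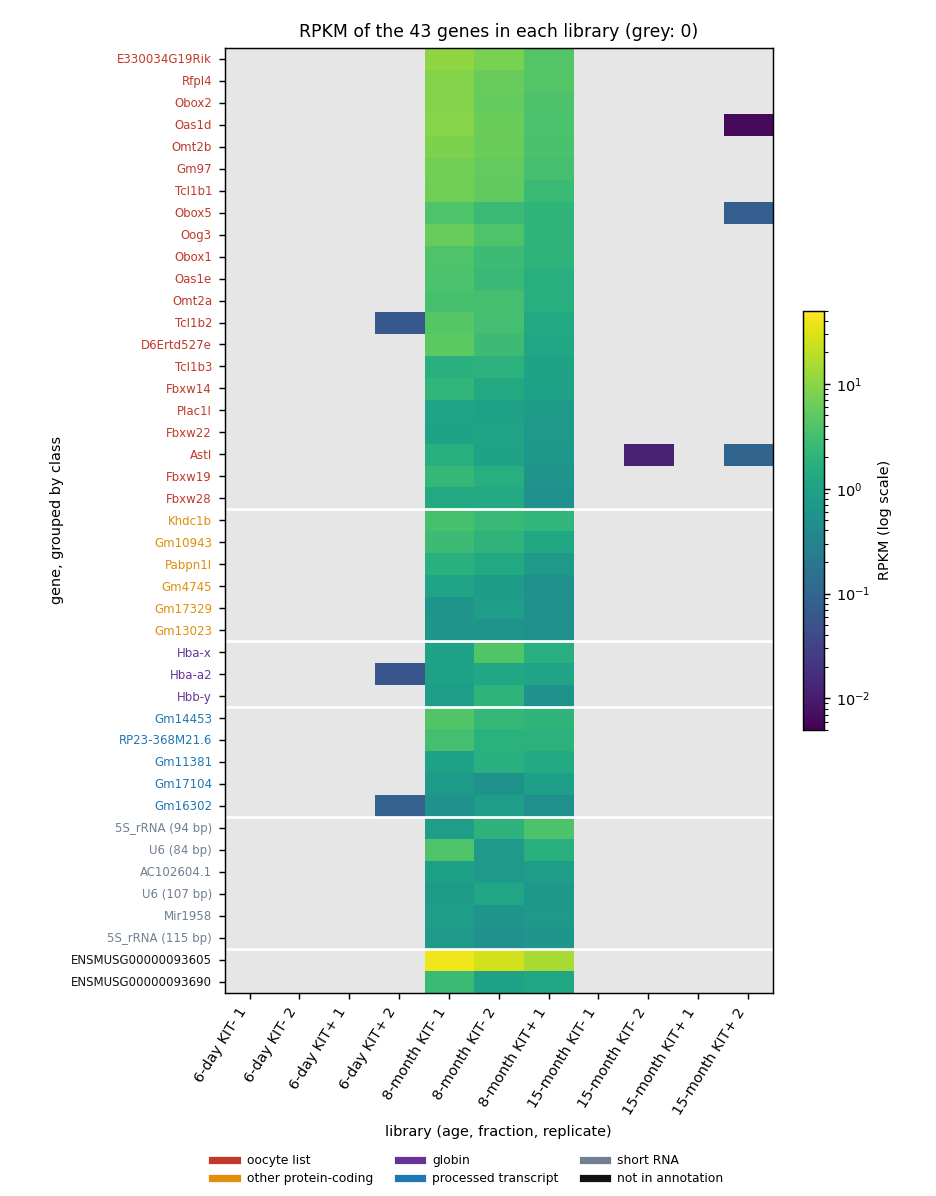
RPKM of the 43 genes (rows, coloured by class) in the 11 libraries (columns) on a log colour scale, with grey for 0. All 3 8-month columns are filled in every row, and the other 8 columns hold 7 values above 0, of which the highest is 0.0967 RPKM for *Astl*.

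The 3 8-month libraries held 5458 reads of the 41 annotated genes. The other 8 libraries held 38 such reads, although they were sequenced 7.64 times as deeply in sum. Of the 43 genes, 37 were at 0 in all 8, and 33 of the 38 reads lay in the deepest library, 15-month KIT+ 2. They came from *Astl*, *Obox5* and *Oas1d*. The genes of the oocyte list took 4718 of the 5458 reads. Their summed RPM, reads scaled to library size alone, was 158 in 8-month KIT- 1, 112 in KIT- 2 and 66.5 in KIT+ 1, against at most 0.43 in any other library.

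The class without annotation held the highest value of all 43. ENSMUSG00000093605 was at 41.0 and 26.4 RPKM in the KIT- libraries and at 14.7 RPKM in the KIT+ library. Its length and position are not in the annotation used here, so its reads could not be recovered. The other identifier of this class, ENSMUSG00000093690, was at 2.68, 0.986 and 1.19 RPKM in the same order.

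Sequences are shown for 2 families with 3 or 4 genes in the set that lie in 1 cluster each. Each is the 250 bases that precede the RefSeq start, in build GRCm38.p6, with every CANNTG in capitals. CANNTG is the E-box, the binding motif of basic helix-loop-helix factors such as FIGLA, and it reads the same on both strands. The *Tcl1b* genes encode relatives of the kinase cofactor TCL1 that are known from eggs and early embryos. The windows of *Tcl1b1* (chr12:105159454-105159703, plus strand), *Tcl1b2* (chr12:105146769-105147018, plus strand) and *Tcl1b3* (chr12:105190795-105191044, plus strand) are:
Tcl1b1: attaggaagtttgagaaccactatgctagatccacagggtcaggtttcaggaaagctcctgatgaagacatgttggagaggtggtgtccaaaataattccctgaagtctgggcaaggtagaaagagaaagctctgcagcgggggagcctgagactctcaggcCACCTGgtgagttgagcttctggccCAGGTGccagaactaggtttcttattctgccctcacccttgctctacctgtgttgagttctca
Tcl1b2: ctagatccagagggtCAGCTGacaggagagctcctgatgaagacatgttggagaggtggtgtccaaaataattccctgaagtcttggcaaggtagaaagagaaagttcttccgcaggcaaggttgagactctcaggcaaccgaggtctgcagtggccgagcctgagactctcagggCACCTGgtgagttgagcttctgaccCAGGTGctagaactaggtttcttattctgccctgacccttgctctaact
Tcl1b3: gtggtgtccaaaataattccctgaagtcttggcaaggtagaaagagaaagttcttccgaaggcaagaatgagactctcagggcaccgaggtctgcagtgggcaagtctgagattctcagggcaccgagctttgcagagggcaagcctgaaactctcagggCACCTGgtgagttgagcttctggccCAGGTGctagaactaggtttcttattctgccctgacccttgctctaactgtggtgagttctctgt

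Each *Tcl1b* window holds CACCTG and CAGGTG, and that of *Tcl1b2* also CAGCTG. Between 69.2% and 78.4% of the 250 bases were identical in pairwise global alignments of the 3 windows. The *Fbxw* genes of chromosome 9 encode F-box proteins with WD40 repeats, and F-box proteins hand substrates to ubiquitin ligases. The windows of *Fbxw14* (chr9:109287677-109287926), *Fbxw28* (chr9:109339660-109339909) and *Fbxw19* (chr9:109495855-109496104), all on the minus strand, are:
Fbxw14: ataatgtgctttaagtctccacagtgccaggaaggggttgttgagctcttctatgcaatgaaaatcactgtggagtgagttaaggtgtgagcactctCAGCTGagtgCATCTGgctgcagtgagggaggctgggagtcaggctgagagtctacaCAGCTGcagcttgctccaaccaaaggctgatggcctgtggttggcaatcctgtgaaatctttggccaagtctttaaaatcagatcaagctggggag
Fbxw28: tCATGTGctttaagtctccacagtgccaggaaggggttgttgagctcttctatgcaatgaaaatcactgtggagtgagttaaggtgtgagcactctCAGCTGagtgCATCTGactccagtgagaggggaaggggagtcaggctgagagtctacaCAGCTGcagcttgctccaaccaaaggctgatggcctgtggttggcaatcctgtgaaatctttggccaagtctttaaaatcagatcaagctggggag
Fbxw19: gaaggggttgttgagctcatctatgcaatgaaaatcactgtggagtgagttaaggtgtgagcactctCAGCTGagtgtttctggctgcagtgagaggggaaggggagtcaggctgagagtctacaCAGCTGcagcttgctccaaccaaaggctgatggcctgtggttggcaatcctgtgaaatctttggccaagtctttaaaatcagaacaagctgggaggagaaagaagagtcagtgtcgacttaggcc

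The *Fbxw* windows were identical at 84.8% to 96.8% of the 250 bases and each held CAGCTG at 2 places. Windows of different families, aligned the same way, were identical at 51.6% to 55.2%. RefSeq promoter windows of 300 bases (250 before to 50 after the start) were found for 24 of the 43 genes, in 27 windows, since a gene can have several starts. An E-box was present in 24 of the 27 windows (88.9%), against 72.3% of all 32851 windows. The palindrome CAGCTG, which is 1 form of the E-box, was in 10 of 27 (37.0%), against 16.3% of all windows. TAATTA or TAATTG, the letters bound by the oocyte homeobox factor NOBOX, was in 3 of 27 (11.1%) against 12.4%, and TATAAA in 3 of 27 (11.1%) against 13.6%, both read on either strand. These are matches of letters and not sites, and windows of near-identical copies are not independent.

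The *Obox* genes encode homeobox proteins of the oocyte and early embryo. *Obox2* (chr7:15939386-15983894, plus strand, NCBIM37 here and below) was at 9.17 and 5.62 RPKM in the 8-month KIT- libraries and at 3.78 RPKM in the KIT+ library. *Obox1* was at 3.92, 2.72 and 2.02 RPKM in the same order, and *Obox5* at 3.95, 2.68 and 2.10 RPKM. *Gm4745*, named *Obox7* in RefSeq, was at 1.10, 0.809 and 0.516 RPKM. So each of these 4 was highest in KIT- 1 and lowest in KIT+ 1, while *Obox3* and *Obox6* were at 0 in every library. *Obox3* spans *Obox1* on the opposite strand and is 93.8% identical to it in coding sequence. For *Obox3*, reads lost in counting cannot be told apart from no reads. The coding sequences of *Obox1* and *Obox2* were 98.7% identical, and 47.9% of the 100-base words of *Obox2* occur in *Obox1*, so the authors' counting may have split or lost reads between them.

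In the *Tcl1b* cluster (chr12:106384224-106433820, 49.6 kb from the start of *Tcl1b2* to the end of *Tcl1b3*), *Tcl1b1* had 6.78 RPKM in KIT- 1, 5.28 in KIT- 2 and 2.65 in KIT+ 1. *Tcl1b2* was at 4.49, 3.16 and 1.32 RPKM and *Tcl1b3* at 1.71, 1.89 and 1.01 RPKM. KIT+ 1 was the lowest of the 3 libraries for each. The relatives *Tcl1b4* and *Tcl1b5* had lower values and missed the floor, *Tcl1b4* narrowly with 0.48 RPKM in its lowest 8-month library and *Tcl1b5* with 0.289 RPKM.

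Of the chromosome 9 *Fbxw* cluster, 4 genes were in the set and lay within 225 kb (chr9:109173350-109398389). *Fbxw14* was at 2.16, 1.36 and 0.975 RPKM in KIT- 1, KIT- 2 and KIT+ 1, and *Fbxw19* at 2.31, 1.70 and 0.584 RPKM. *Fbxw22* was at 1.03, 1.09 and 0.714 RPKM and *Fbxw28* at 1.33, 1.41 and 0.512 RPKM. All 4 were at 0 in the other 8 libraries, whereas their relatives *Fbxw13*, *Fbxw18* and *Fbxw24* reached 2.38, 0.568 and 2.52 RPKM there. *Fbxw14* and *Fbxw28* share 99.1% of their coding sequence, and 36.5% and 43.5% of their 100-base words occur in another coding gene.

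**Figure D2:**
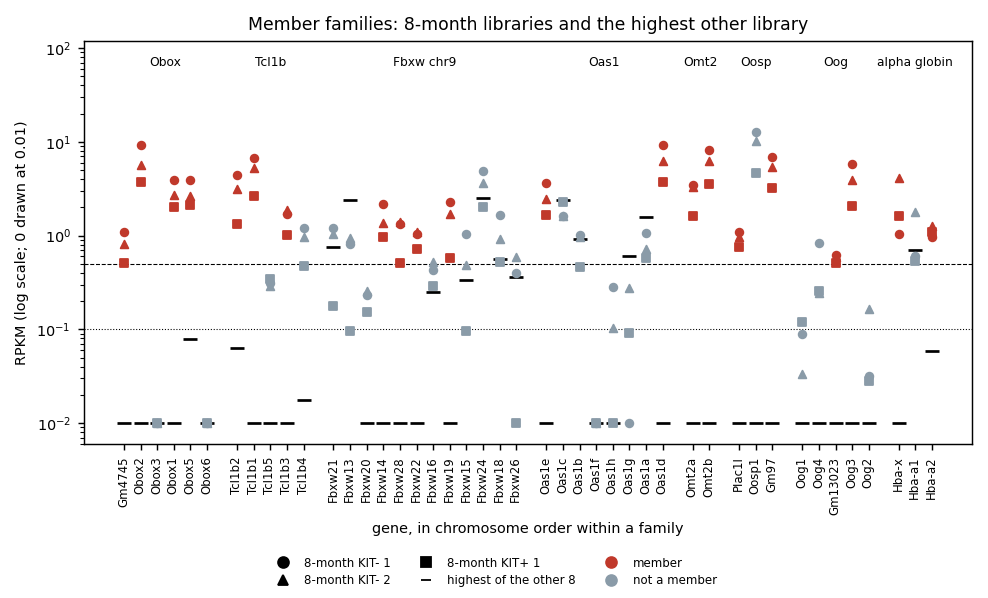
RPKM (log scale, 0 drawn at 0.01) of each gene of 8 families in the 3 8-month libraries (symbols), with the highest value in the other 8 libraries as a bar, and the floor of 0.5 and ceiling of 0.1 as lines. Genes of the set are red, and grey genes are relatives outside the set, which missed a threshold or, for *Oosp1*, were left out by name.

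*Oas1d* and *Oas1e* are oocyte relatives of the antiviral oligoadenylate synthetases. *Oas1d* (chr5:121364354-121371661) was at 9.26, 6.32 and 3.70 RPKM in KIT- 1, KIT- 2 and KIT+ 1, and *Oas1e* at 3.67, 2.45 and 1.65 RPKM. The 6 *Oas1* genes between them on chromosome 5 were not in the set. *Oas1c* was at 1.61 to 2.31 RPKM at 8 months and reached 2.41 RPKM elsewhere, *Oas1a*, *Oas1b* and *Oas1g* also exceeded 0.1 RPKM elsewhere, *Oas1h* reached 0.28 RPKM at 8 months and was at 0 elsewhere, and *Oas1f* was at 0 throughout. No 100-base word of *Oas1d* or *Oas1e* occurs in another coding gene.

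*Gm97* and *Plac1l*, named *Oosp3* and *Oosp2* in RefSeq, encode oocyte secreted proteins and flank *Oosp1* on chromosome 19 (chr19:11721769-11786364). *Gm97* was at 6.95, 5.41 and 3.25 RPKM and *Plac1l* at 1.08, 0.976 and 0.747 RPKM in KIT- 1, KIT- 2 and KIT+ 1, with 9, 11 and 7 reads behind the latter. The left-out gene between them was at 0 in all other libraries as well. *Omt2a* and *Omt2b*, known as oocyte maturation genes, lie within 17.6 kb (chr9:78159779-78177427). They were at 3.46, 3.28 and 1.63 RPKM and at 8.17, 6.22 and 3.58 RPKM.

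Among the single genes, *E330034G19Rik* (chr14:25112436-25129188) had the most reads of the annotated genes. It had 10.8 RPKM in KIT- 1, 7.91 in KIT- 2 and 4.29 in KIT+ 1, on 242, 240 and 108 reads, with 0 reads elsewhere. A count of 0 in the other 8 libraries together allows up to 3 reads, or 0.00504 RPKM, counting error alone considered. The rule chose the gene by these values, so no bound on the difference between the ages is read from them. *Rfpl4*, a RING finger protein of oocytes, was at 8.97, 5.81 and 4.27 RPKM. *Oog3*, an oogenesin of the PRAME family, was at 5.87, 3.93 and 2.06 RPKM, and *D6Ertd527e* at 4.82, 2.74 and 1.24 RPKM. *Astl*, the egg protease ovastacin that cleaves ZP2 after fertilization, was at 1.63, 1.01 and 0.679 RPKM. It was the gene nearest the ceiling, with 0.0967 RPKM in 15-month KIT+ 2.

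The 6 other coding genes include relatives of oocyte families. *Khdc1b*, of a KH domain family, was at 3.45, 2.57 and 2.16 RPKM in KIT- 1, KIT- 2 and KIT+ 1. *Pabpn1l*, a poly(A)-binding protein known from oocytes and early embryos, was at 1.71, 1.36 and 0.757 RPKM. *Gm13023* (*Pramel25* in RefSeq) was at 0.62, 0.587 and 0.51 RPKM and is 96.4% identical in coding sequence to *Oog1*, which had at most 0.12 RPKM. *Gm10943* and *Gm17329* have 60 and 141 bp of exon and rest on 5 and 4 reads in all, and they overlap *Gopc* and, on the other strand, *Col1a1*.

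The globins are *Hba-x*, the embryonic zeta chain, *Hbb-y*, an embryonic beta-like chain, and *Hba-a2*, an adult alpha chain. *Hba-x* was at 1.05 RPKM in KIT- 1, 4.10 in KIT- 2 and 1.62 in KIT+ 1, on 12, 64 and 21 reads. *Hbb-y* was at 0.865, 2.00 and 0.548 RPKM, on 7, 22 and 5 reads, and *Hba-a2* at 0.976, 1.26 and 1.08 RPKM. Here KIT- 2 was the highest library for all 3 genes, as it was for 3 of the 21 genes of the oocyte list. *Hba-a1*, 99.8% identical to *Hba-a2* in coding sequence, was at 0.535 to 1.78 RPKM at 8 months and reached 0.697 RPKM elsewhere, and 76.1% of the 100-base words of *Hba-a2* occur in it. Of the 7 genes of the erythroid list only *Hba-a2* was in the set. The summed level of the list was 3.23 to 4.64 RPKM at 8 months, 0.614 to 2.70 at 6 days and 2.49 to 3.45 at 15 months, and the part of red cells in these values was not tested.

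The 5 processed transcripts were at 0.507 to 4.14 RPKM in the 8-month libraries. *Gm14453* and *RP23-368M21.6* lie within 12.1 kb on the strand opposite to *Rbm38* (chr2:172848004-172860081), and had 65 and 19 reads in all. They were at 4.14, 2.28 and 2.09 RPKM and at 3.30, 1.82 and 1.83 RPKM. *Gm11381*, *Gm17104* and *Gm16302* had 25, 10 and 12 reads. Whether counting used strand is not given in the sources used here, so reads of a gene on the other strand cannot be told apart from theirs.

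The 6 short RNAs (2 annotated as 5S_rRNA, 2 as U6, *Mir1958* and *AC102604.1*) have 84 to 115 bp of exon and 3 to 9 reads each over the 3 libraries. All but *AC102604.1* overlap a longer gene on the same strand (*Ncoa7*, *Akap13*, *Tmem219*, *Erp44* or *Agap1*). Reads of that gene cannot be told apart from theirs. In libraries of this depth 1 read equals 0.5 RPKM on 163, 120 and 145 bp in KIT- 1, KIT- 2 and KIT+ 1, so a single read per library was enough for *Mir1958*, *AC102604.1* and the 5S_rRNA of 115 bp. In total, 8 of the 41 annotated genes had 1 or 2 reads in some 8-month library, and 25 had at least 10 in each. Of those 25, 20 were on the oocyte list (80.0%).

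**Figure D3:**
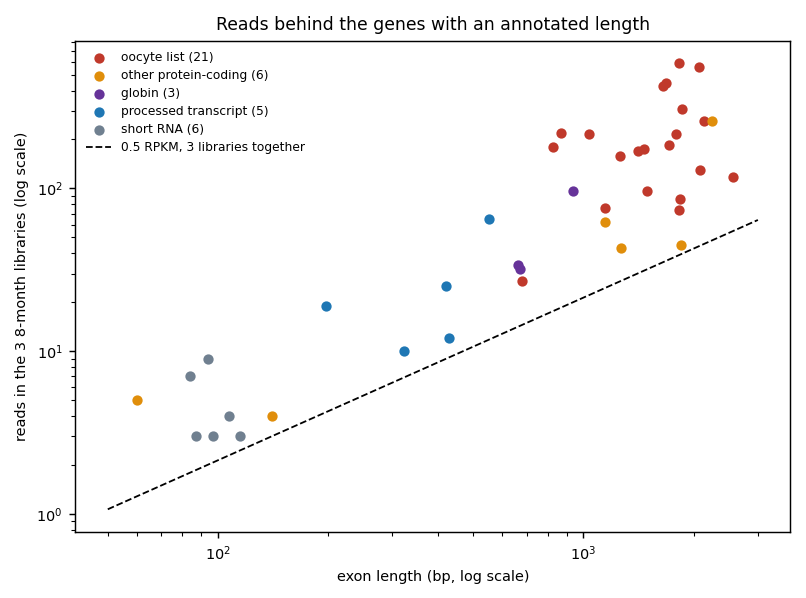
Reads in the 3 8-month libraries together against exon length (both log scales) for the 41 annotated genes, coloured by class, with the line that corresponds to 0.5 RPKM. The short RNAs and the 2 shortest coding genes sit at 3 to 9 reads, and the oocyte genes at 27 to 590.

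At the thresholds, the genes just inside the floor were *Gm16302*, *Gm13023* and *Fbxw28*, with 0.507, 0.51 and 0.512 RPKM in their lowest 8-month library. Just outside it were *Tcl1b4*, a SNORA17 and a U1 gene, with 0.48, 0.456 and 0.452 RPKM. Just inside the ceiling were *Astl*, *Gm16302* and *Obox5*, with 0.0967, 0.0921 and 0.0794 RPKM in their highest other library. Just outside it were *Accsl*, *Mos* and *Gm7502*, with 0.128, 0.135 and 0.142 RPKM. Turned to the other ages, the same thresholds gave 3 genes in the 4 6-day libraries and 0 in the 4 15-month libraries. At 8 months they gave 45 before the 10 genes were left out. These counts are not like for like, since only 3 libraries had to pass the floor at 8 months. Those libraries were also the shallowest, so 1 read reached the floor on longer genes than at the other ages. Of the counted genes, 2 at 6 days, 32 at 8 months and 0 at 15 months were protein-coding.

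Outside the set, shares of the oocyte list are again a description, since it was chosen with earlier results of these data known. Of its other 58 identifiers, 20 (34.5%) had each 8-month value above all 8 others, against 2.74% of all identifiers. Among them, *Bcl2l10*, an oocyte survival factor, had 28.3 RPKM in KIT- 1, 20.4 in KIT- 2 and 12.8 in KIT+ 1, with up to 0.446 RPKM elsewhere. *Zbed3* was at 9.13 to 19.2 RPKM and up to 0.663 elsewhere, and *Btg4* at 6.43 to 14.0 RPKM and up to 0.375 elsewhere. The 10 left-out genes had between 0.0365 and 12.8 RPKM in their lowest 8-month library (median 1.54) and a median highest value of 0.348 RPKM in the other libraries.

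**Figure D4:**
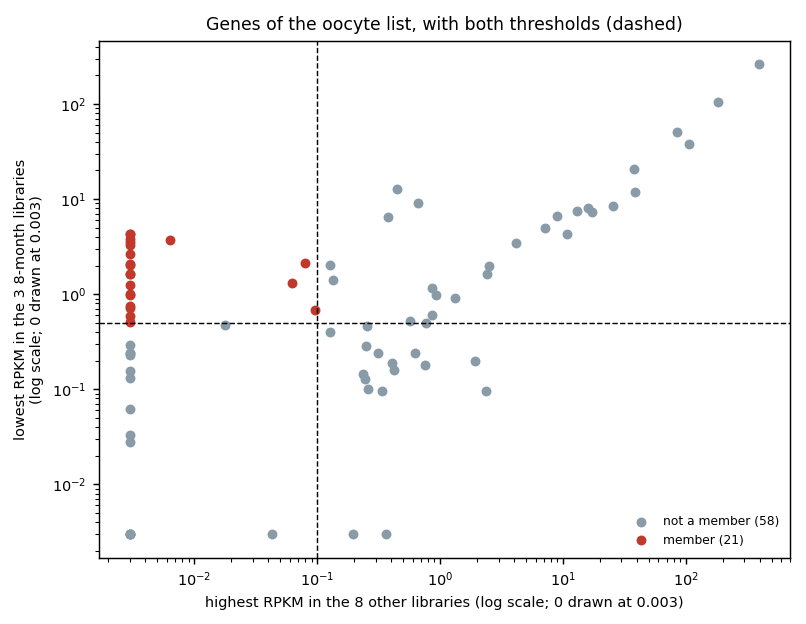
Lowest RPKM in the 3 8-month libraries against highest RPKM in the other 8 (both log scales, 0 drawn at 0.003) for the 79 identifiers of the oocyte list, with both thresholds dashed. The 21 genes of the set (red) lie in the upper left corner, 3 grey genes with 6 to 13 RPKM just right of it are *Bcl2l10*, *Zbed3* and *Btg4*, and genes such as *Ddx4* lie at the upper right with over 100 RPKM on both axes.

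No gene of the set was on the lists of granulosa or cumulus, Sertoli, Leydig, macrophage, peritubular or endothelial cells, spermatids, spermatocytes, spermatogonia, early embryos or the Y chromosome. With 0.113% of all identifiers in the set, lists of 8 to 16 genes would rarely hold any, so nothing is read from this. Of the spermatocyte and spermatogonia lists, 10 of 10 and 12 of 14 genes had at least 0.5 RPKM in every library, above the ceiling of the rule. Of the 16 granulosa or cumulus genes, 5 had at least 0.5 RPKM in each 8-month library. *Fst*, *Nr5a2*, *Inha* and *Amhr2* were higher in some library of another age, and *Rspo1* had 4.55, 3.38 and 1.05 RPKM in KIT- 1, KIT- 2 and KIT+ 1 against up to 2.71 elsewhere. The cumulus genes *Has2* and *Ptx3* and the granulosa regulator *Foxl2* were at 0 to 0.0287 RPKM at 8 months. Only *Inhba* of the 16 had each 8-month value above all others, with 0.0366 to 0.182 RPKM against 0. The summed level of this list was 12.2 to 45.1 RPKM at 8 months, 46.8 to 83.7 at 6 days and 8.37 to 41.0 at 15 months. *Xist*, the RNA that silences an X chromosome in females, had 1.14 and 1.08 RPKM in the 8-month KIT- libraries and 0.217 RPKM in the KIT+ library, with up to 0.472 RPKM at 15 months and 0.226 RPKM at 6 days. Of the 8 Y-linked genes, 6 had at least 0.5 RPKM in every library, and the summed level of the list was 42.1 to 70.1 RPKM at 8 months, 64.3 to 68.5 at 6 days and 55.4 to 94.1 at 15 months. They did not move together. *Eif2s3y* was at 16.8 and 16.7 RPKM in 8-month KIT-, 38.3 RPKM in 8-month KIT+ and 29.5 to 53.3 RPKM in the other libraries, while *Kdm5d* had 6.51, 6.63 and 5.20 RPKM in KIT- 1, KIT- 2 and KIT+ 1 against 4.78 to 7.39 elsewhere. The part of oocyte RNA, or of another source, in these libraries was not tested.

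Within the 8-month libraries, the summed RPM of the 21 genes of the oocyte list in KIT- 2 was 0.708 of that in KIT- 1 (95% exact counting interval 0.664 to 0.754), and that in KIT+ 1 was 0.505 of pooled KIT- (0.470 to 0.543). Ratios of single genes ran from 0.568 to 1.10 for KIT- 2 to KIT- 1 and from 0.292 to 0.725 for KIT+ to mean KIT-. Each gene's own counting interval, often wide, held the pooled ratios to which it contributes. The order KIT- 1, KIT- 2, KIT+ 1 from high to low was seen in 18 of 21, against 29.0% of the 12437 genes with at least 0.5 RPKM in each 8-month library, and KIT+ 1 was the lowest in 21 of 21, against 43.3%. Over those 12437 genes the median KIT+ to KIT- ratio was 1.00. The 10 left-out genes gave pooled ratios of 0.723 and 0.584, but their single KIT+ to KIT- ratios ran from 0.143 to 5.05, with 6 of 10 below both KIT- libraries and 2 of 10 above both.

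For KIT- 2 to KIT- 1, the globins *Hba-x* and *Hbb-y* stood apart. The summed RPM of the globin class was 2.73 times as high in KIT- 2 as in KIT- 1 (1.77 to 4.34). Of its 100 reads in KIT- 2, 64 came from *Hba-x*. *Hba-x* and *Hbb-y* each had intervals that left out 0.708. The interval of *Hba-a2* (0.504 to 3.54) held it, as did those of the other coding genes, processed transcripts and short RNAs. For KIT+ to KIT-, the globin interval (0.397 to 0.863) held 0.505, while that of the other coding genes (0.543 to 0.859) lay above it. The latter still met the interval of the oocyte list (0.470 to 0.543), and *Khdc1b* gave 258 of the 417 reads behind it. Of single genes, *Khdc1b* (0.546 to 0.973) and a 5S_rRNA with 9 reads had intervals that left out 0.505. These intervals cover counting error only, and each ratio compares single libraries, since there was 1 KIT+ library.

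**Figure D5:**
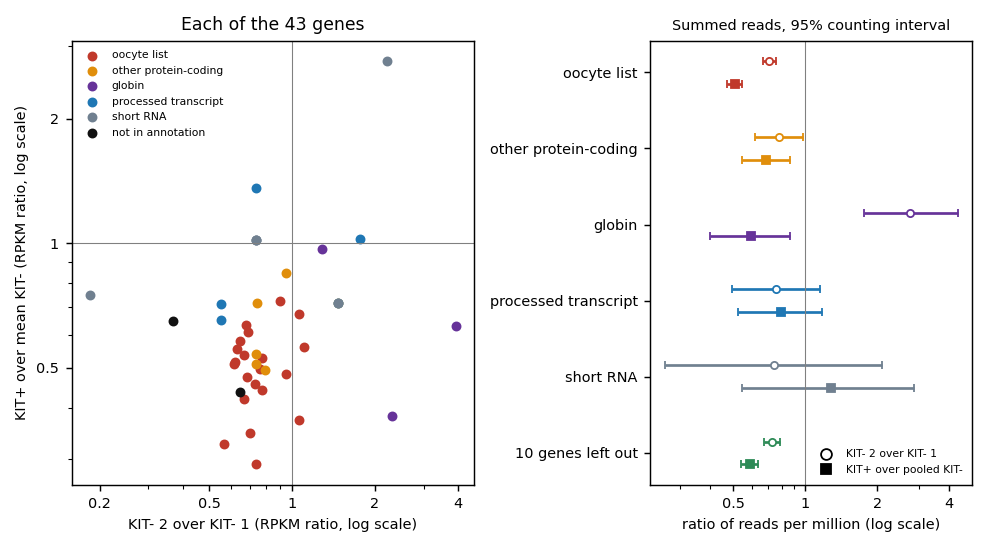
Left, RPKM ratios (log scales) of KIT- 2 to KIT- 1 and of KIT+ to mean KIT- for each of the 43 genes, by class. Right, the same ratios from summed RPM with 95% counting intervals, where the globins stand at 2.73 for KIT- 2 to KIT- 1 and the oocyte list at 0.708.

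The rule set a floor in each 8-month library and no order among them, but the floor also kept out genes that fell under it in KIT+ cells alone, so the contrast of KIT+ and KIT- cells is not free of the choice. Over all 43 genes, the median difference was -0.46 on the log2(RPKM + 1) scale, against -0.01 over the 25657 genes with any value above 0, and it was -0.74 with a pseudocount of 0.1. KIT+ 1 was below both KIT- libraries in 32 of 43, against 43.3% of the 12437 genes with at least 0.5 RPKM in each 8-month library. With limma on log2(RPKM + 1) and 1 spread for all 11 libraries, 27 of the 43 passed the filter on low values, which they did almost only through the 8-month libraries. At an FDR of at most 0.05 and 1.5-fold, 11 of them were lower in KIT+ cells and 0 higher, where 6.85% of all tested genes were called lower and 7.00% higher, and nothing is read from that count. *Fbxw19* differed by -0.92 (SE 0.14, adjusted p = 0.00575), *Tcl1b2* by -1.04 (SE 0.18, adjusted p = 0.0087) and *D6Ertd527e* by -1.06 (SE 0.23, adjusted p = 0.0217) on that scale. The others were *Fbxw28*, *Omt2a*, *Omt2b*, *Tcl1b1*, *E330034G19Rik*, *Oog3*, *Gm97* and *Oas1d*. *Khdc1b* (-0.34, adjusted p = 0.202), *Gm14453* (-0.41, adjusted p = 0.298), *Hba-x* (-0.30, adjusted p = 0.713) and *Hba-a2* (-0.02, adjusted p = 0.941) did not pass, and without KIT- 2 the difference was 0.36 for *Hba-x* and 0.0745 for *Hba-a2*.

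These adjusted p-values are too small to be taken at their face value. They rest on the spread of other libraries, in which the rule put the genes near 0, with a median residual SD of 0.128 for the tested genes of the set and 0.178 for all. No call was left when limma used the 8-month libraries alone (8 of 27 at an unadjusted p under 0.05) or voom on recovered reads (1 of 27), 1 was left with a pseudocount of 0.1, 3 of 9 with a mean of at least 1 RPKM, and there were 20 without KIT- 2.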

How the data were processed

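The 11 RNA-Seq libraries of sorted *Oct4*-GFP+ cells were grouped by the sample labels. The authors deposited RPKM values, 1 table per library, from rRNA-depleted total RNA sequenced as paired ends. The study's methods name Trimmomatic, mm9 and featureCounts on Ensembl genes, while the submitters' processing notes list Trim Galore and RSEM, so the sources differ. TopHat is named for the assembly of non-coding transcripts, and for the gene values the aligner and the use of strand are not given in the sources used here. RPKM corrects for depth and length but not for reads shared between close copies.

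Repeated identifiers (2007 rows of 667) held equal values and were collapsed. RPKM times exon length (GENCODE M1, NCBIM37) and library size gave whole reads, within 0.05, for over 98% of values, at 12238327 to 76756528 reads per library. Intervals and floors of 3 counts cover counting error only. The members and lists were chosen with earlier results of these data known. Classes were set by the oocyte list, then by globin symbols and then by annotated gene type.

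The design had allowed for counts. As the values are RPKM, limma 3.58.1 (R 4.3.3) with a variance trend was fitted to log2(RPKM + 1) in 6 groups, for 18412 genes (10 or more recovered reads in 2 or more libraries), with Benjamini-Hochberg adjustment. Tested on simulated data, the fit called more unchanged genes than its FDR allows. The study's methods describe biological replicates from independent sorts, but not which animals went into a library. Genes named are the 20 with the highest floor, those on a list, at a threshold, in a stretch (starts within 200000 bp) or at the extremes of the KIT ratio, and others are named where counts of 5 or fewer or family relatives required it, after their values were seen. Python 3.11.15, Biopython 1.88 (alignments) and scipy 1.17.1 were used. Promoters and current symbols came from RefSeq (GRCm38.p6), with 19 genes without a window.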

Additional observations from a re-analysis of the deposited data

How the results depend on the processing

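The size of the set depends on the rule. It was 43 genes, 21 with a floor of 1 RPKM and 25 with at least 10 reads in each 8-month library. The share on the oocyte list was 71.4% and 80.0% in these smaller sets. Leaving out a library gave 45 to 72 genes, with 68 without 8-month KIT- 1 and 72 without 8-month KIT+ 1 (without a library the rule can only add genes). The other settings of the rule gave 37 to 60 genes.

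The number of genes of the set called between KIT+ and KIT- at 8 months (11 of 27) was 1 with a pseudocount of 0.1 and 3 of 9 with a mean of at least 1 RPKM. It was 0 with the 8-month libraries alone, with voom on recovered reads or with a replicate block inside each age (8, 1 and 23 of 27 at an unadjusted p under 0.05, beside 6269, 3305 and 3981 of all 18412 genes). Leaving out a library gave 9 to 20, the 20 without 8-month KIT- 2. Without 8-month KIT+ 1 there is no contrast, so this fit was not run. Over all genes 2550 were called, 0 with the 8-month libraries alone (6269 at an unadjusted p under 0.05) or with the block (3981), 1250 with voom, and 980 to 3433 when a library was left out, with 980 without 8-month KIT- 1 and 1404 without KIT- 2. Across genes, deviations from the group mean in same-numbered libraries of both fractions had r = 0.05 at 6 days and r = -0.06 at 15 months. So no pairing by replicate number was seen at these ages. At 8 months it could not be checked, with 1 KIT+ library. The median difference of the set (-0.46) was -0.74 with a pseudocount of 0.1 and -0.65 to -0.30 when a KIT- library was left out. Of the 27 tested genes, *Hba-x* (-0.30) and *Hba-a2* (-0.02) turned their direction, to 0.36 and 0.0745, with the block. When a library was left out they ran from -0.96 to 0.36 and from -0.12 to 0.0745, positive without 8-month KIT- 2. The last is not a separate check, since the block at 8 months also sets KIT+ 1 against KIT- 1 alone. The causes were not tested. Depth limits the short genes most, where 1 read reaches the floor.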
